A study of Mus musculus with 2 samples.

Results

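The transcripts described here encode proteins of the lysosome: proteases, glycosidases, other soluble enzymes and cofactors, membrane proteins, and a regulator of the pathway. Members were the genes whose symbol in the deposited gene list was one of 35 fixed names, and all 35 were found among 31053 genes. By role they comprised 11 cathepsins and legumain, 9 glycosidases, 8 membrane proteins, 6 other soluble proteins, and Tfeb. The data are droplet single-cell transcriptomes of liver endothelium from a study of Gimap5, which encodes a GTP-binding protein of lysosomal membranes. DAPI-CD45-CD31+ cells, that is live cells that lack the leukocyte marker and carry the endothelial one, were sorted from 1 adult Gimap5sph/+ mouse (written sph/+), which has 1 copy of the mutant sphinx allele, and 1 adult Gimap5sph/sph mouse (written sph/sph). Both mice were of C57BL/6 background, and the control animal carried the allele too, so the comparison is not with wild type. Each mouse gave 1 library.

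Lysosomes break down what a cell takes up or recycles. Cathepsins cut proteins, glycosidases trim sugar chains from glycoproteins and glycolipids, and the membrane proteins protect the limiting membrane, move cholesterol and lipids out, or acidify the lumen. Liver sinusoidal endothelial cells (LSECs) are known as scavenger cells that clear collagen fragments, hyaluronan and modified proteins from blood, and are rich in lysosomes. Tfeb encodes a transcription factor that drives many lysosomal genes through a short E-box element.

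That element was searched as TCACGTG on both strands of RefSeq promoters of GRCm38.p6, which run from 250 bases before to 50 bases after a start site. A gene could have several promoters, and a palindromic run that also ends in A matches on both strands. Of 32 members matched by symbol, 9 held the element in a promoter (28.1%), against 4.29% of the 27025 genes in the table. By role these were 3 of 9 matched cathepsins and legumain (Ctsa, Ctsd and Lgmn), 4 of 9 glycosidases (Gaa, Gla, Glb1 and Naglu), 2 of 7 membrane proteins (Lamp1 and Atp6v0d1) and 0 of 6 other soluble proteins. Windows from 6 of these promoters are shown because they belong to members described below that differed in their response. Each reads 5′ to 3′ on the gene's strand, with the element in capitals. A match is a stretch of letters and not a measured binding site.

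Lamp1: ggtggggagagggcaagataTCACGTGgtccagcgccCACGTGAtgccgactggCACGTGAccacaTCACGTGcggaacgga
Ctsd: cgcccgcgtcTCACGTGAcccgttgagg
Lgmn: ggaatgtctgTCACGTGgtccatttta
Naglu: aaccttcaggTCACGTGgcccgaggtc
Gaa: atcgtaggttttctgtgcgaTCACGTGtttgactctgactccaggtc
Glb1: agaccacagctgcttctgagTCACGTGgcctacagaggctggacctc

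The Lamp1 window, at chr8:13159079-13159160 on the plus strand, ends at the base before the RefSeq start and held 4 separate copies. The other 5 windows held 1 copy each. The Ctsd promoter held another match farther upstream, at -245 to -239 from the start, outside the window shown. The Ctsd window lies at chr7:142387909-142387936 on the minus strand and the Lgmn window at chr12:102439126-102439152 on the minus strand. On the plus strand, the Naglu window lies at chr11:101070010-101070036, the Gaa window at chr11:119267802-119267848 and the Glb1 window at chr9:114401009-114401055. The Ctsd, Lgmn and Naglu windows overlap the gene as GENCODE annotates it, where a transcript starts farther upstream. In the same promoter span no match was found for Lamp2, Scarb2, Ctsl, Man2b1, Cd63 or Psap, among others.

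After filtering and doublet removal, 10292 sph/+ and 10748 sph/sph cells were endothelial-like, with 47600219 and 51540559 UMIs (unique molecular identifiers, each standing for 1 captured transcript). Levels are given as CPM, the UMIs of a gene over all UMIs of the summed cells on the usual scale of counts per 1000000. Intervals are 95% exact Poisson intervals for levels, exact binomial intervals of the pooled count for ratios, and Clopper-Pearson intervals for shares, and cover counting error only. With 1 library per genotype no test was possible, and an effect of genotype cannot be told apart from one of mouse or library. A gene was called measured at 20 CPM or more on either side, and higher or lower at 1.5-fold or more after 1 CPM was added to both sides. Among 13 Kupffer cell and macrophage markers, none was at 0 in either library, and their levels summed to 164 CPM for sph/+ against 27.0 CPM for sph/sph. Fcer1g accounted for 131 and 14.6 CPM of these sums, while the defining marker Clec4f was at 0.63 and 0.194 CPM. Hepatocyte markers summed to 103 and 157 CPM. Of the deposited barcodes, 30 were shared by both libraries, 19 of them kept.

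Lymphatic-like barcodes were set apart because lymphatic-type cells are rich in several lysosomal transcripts. They were found almost solely in the sph/sph library. A barcode with at least 5 Lyve1 and at least 2 Mmrn1 UMIs was called lymphatic-like. The rule took 974 of the sph/sph endothelial-like cells, 9.06% (8.53 to 9.62), and 8 of the sph/+ cells, 0.0777% (0.0336 to 0.153). In those of sph/sph 5 of 7 lymphatic markers were detected in at least 25% of cells, and Prox1, the transcription factor of lymphatic identity, was at 486 CPM. Lyve1 and Mmrn1 are among the 7, and the rule itself fixed their detection. Flt4, another of the 7, is also on the LSEC marker list. These barcodes were deep, with a median of 10218 UMIs against 3711 in the other sph/sph cells, and 105 cells lay within 1 UMI of a threshold. Ribosomal protein transcripts made up 17.5% of their UMIs against 9.73% in the other sph/sph cells. The rule also left behind 193 cells of the lymphatic-like clusters. The 8 sph/+ barcodes all fell in a vein cluster, and 6 of the 7 lymphatic markers were detected in them, again counting Lyve1 and Mmrn1. Of 1159 deposited sph/sph barcodes that met the rule, 982 remained after filtering and doublet removal. Whether doublets remain among these deep barcodes was not tested.

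Lysosomal transcripts were fewer in the sph/sph library, whose cells were also largely of other kinds. LSEC-like clusters held 94.6% of sph/+ endothelial-like cells, and the residual sinusoidal-type cluster described below held 7.88% of those of sph/sph. In library-wide levels and ratios, a difference in level within a kind of cell cannot be told apart from the difference in cell mix. Together the 35 members made up 0.999% (0.9964 to 1.002) of endothelial-like UMIs in sph/+, against 0.531% (0.5294 to 0.5333) in sph/sph. Without lymphatic-like barcodes the sph/sph share was 0.435%, while within those barcodes it was 0.926%. In cells thinned to 2000 UMIs, the median share per cell was 1% in LSEC-like sph/+ cells (quartiles 0.80 and 1.20), 0.40% in sph/sph cells outside the lymphatic-like barcodes (0.30 and 0.55) and 0.90% in the lymphatic-like barcodes (0.70 and 1.15). Thinning left out 394, 902 and 3 shallower cells, and the unthinned medians were 1.01%, 0.394% and 0.904%.

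**Figure D1:**
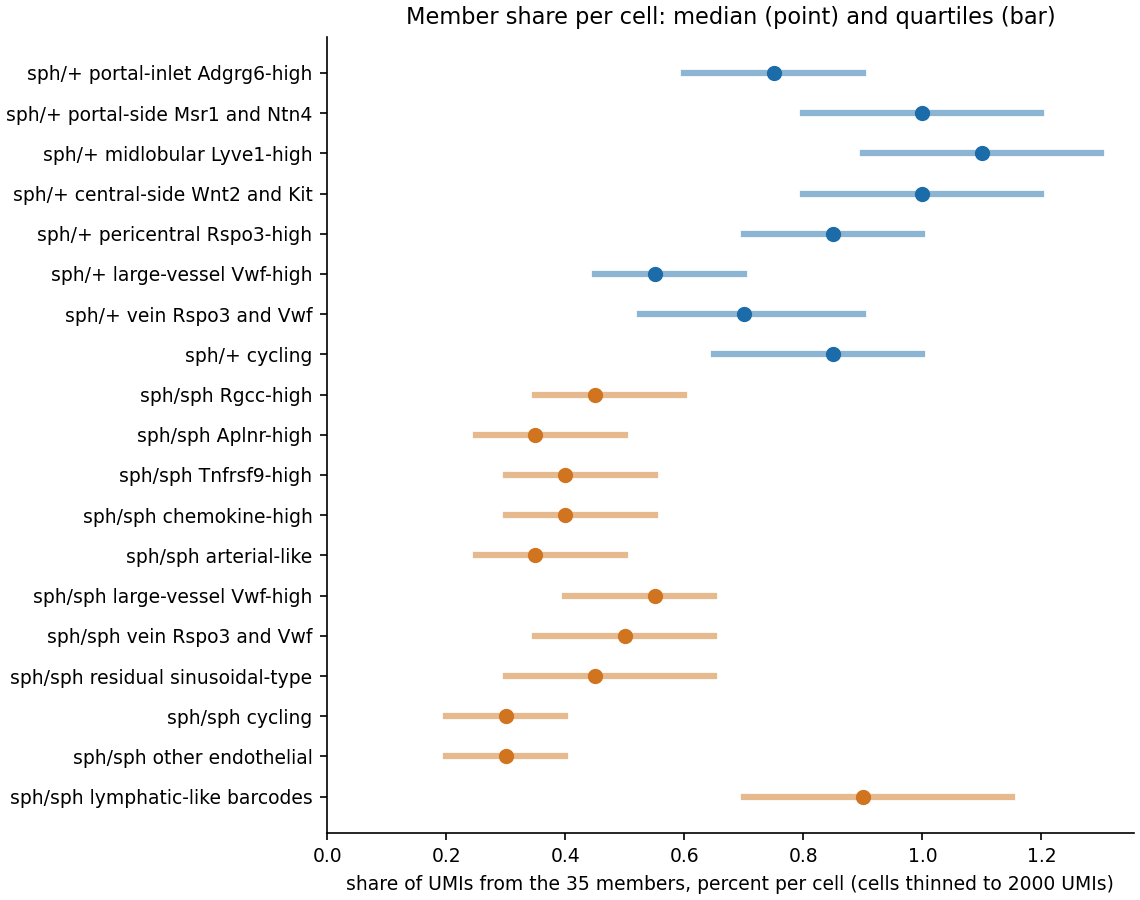
Share of UMIs that came from the 35 members, in percent per cell thinned to 2000 UMIs, by class of cell in the sph/+ (blue) and sph/sph (orange) libraries. Points are medians and bars run between quartiles; the sph/+ sinusoidal zones have medians from 0.75% to 1.10%, and the sph/sph classes from 0.30% to 0.55% apart from the lymphatic-like barcodes at 0.90%.

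Of 30 measured members, 17 were lower and 2 were higher in the endothelial-like cells of sph/sph as a whole, beside 21.5% of 7470 measured genes lower and 18.4% higher. The members lower made up 56.7% of those measured. The median log2 ratio of the members was -0.79, beside -0.07 over all measured genes. Without lymphatic-like barcodes 18 members were lower and 2 higher, beside 21.9% and 18.2% of 7454 genes, and the member median was -1.03. Over all endothelial-like cells, those lower were 5 of 9 measured cathepsins and legumain, 5 of 8 glycosidases, 4 of 7 membrane proteins and 3 of 6 other soluble proteins. Without lymphatic-like barcodes Ctsd was lower too, which made 6 of 9 cathepsins and legumain, and the other groups had the same counts. Ctsc, Ctss, Gla, Cd68 and Tfeb stayed under 20 CPM in both libraries.

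**Figure D2:**
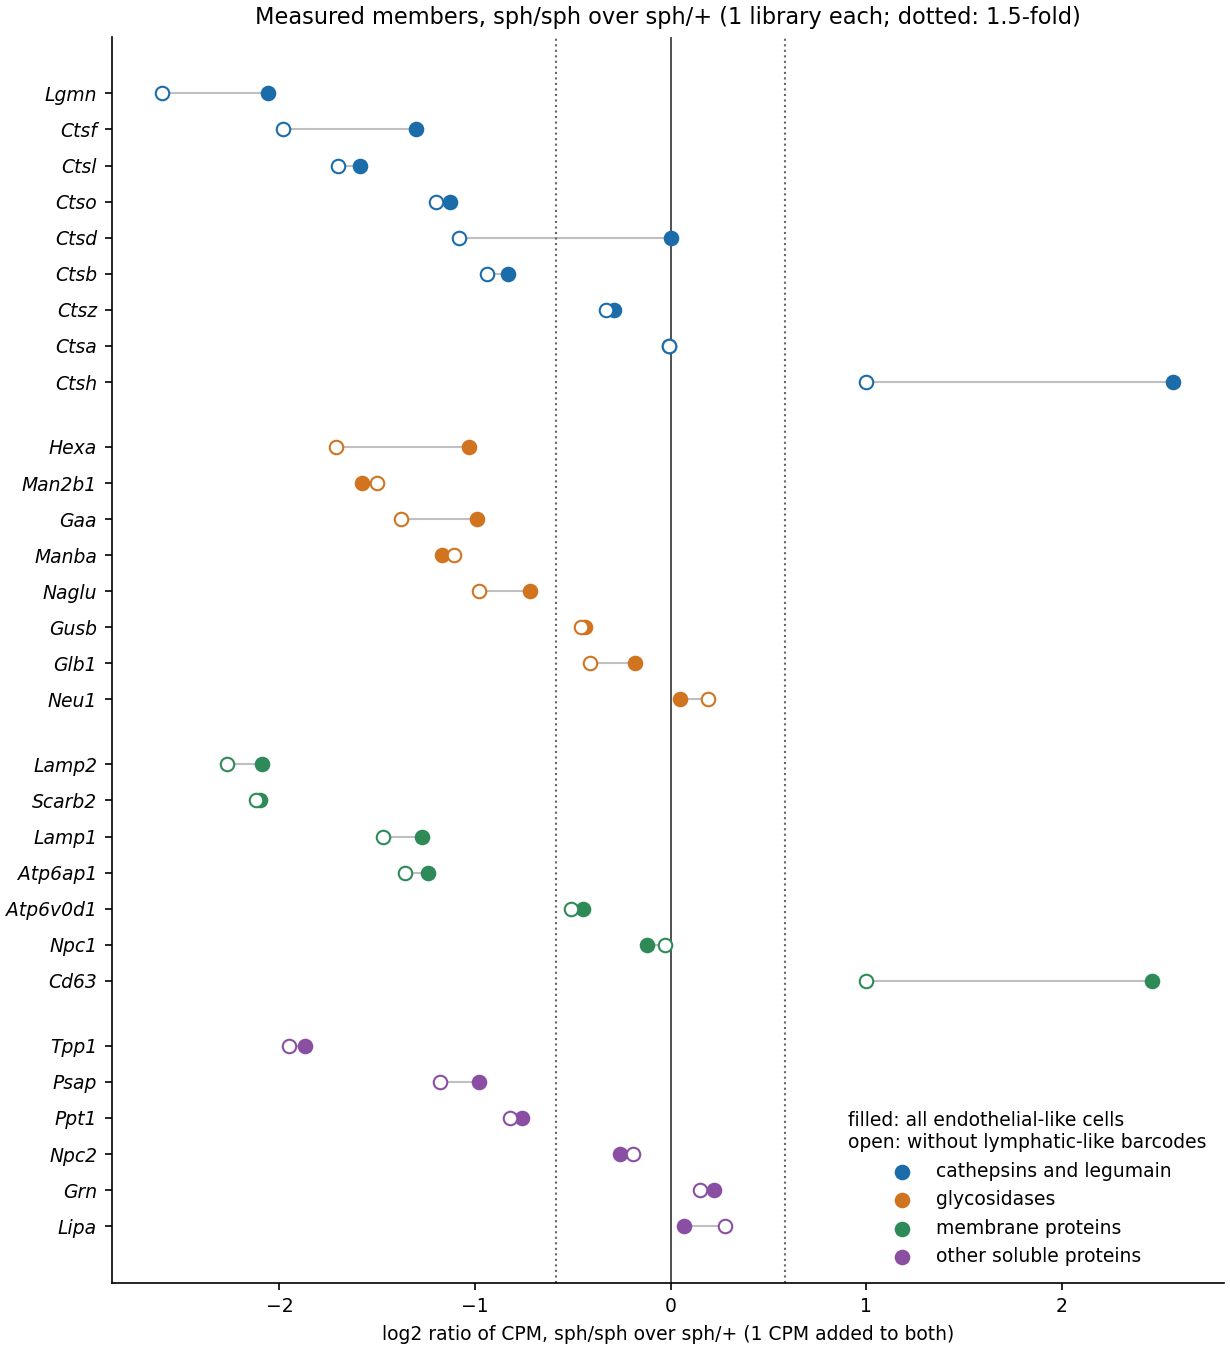
Log2 ratio of CPM, sph/sph over sph/+, for each measured member, in all endothelial-like cells (filled) and without lymphatic-like barcodes (open); dotted lines mark 1.5-fold, and each library is 1 mouse. Most members lie left of the lower line, Ctsd moves from 0.00 to -1.08 when lymphatic-like barcodes are left out, and Ctsh and Cd63 lie at the right end in both.

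Among the proteases, the one most abundant in sph/+ also had the widest gap in CPM. Ctsl, which encodes the broad endopeptidase cathepsin L, had 1691 CPM (1679 to 1702) in sph/+ against 561 CPM (555 to 568) in sph/sph, a 3.01-fold lower level (2.97 to 3.05). Lgmn, which encodes the asparaginyl endopeptidase that also processes cathepsins, stood at 698 CPM (690 to 706) against 166 CPM (163 to 170), or 4.20-fold lower (4.10 to 4.30). The Lgmn gap was wider outside lymphatic-like barcodes, where sph/sph stood at 114 CPM, 6.12-fold lower. Ctsb, encoding cathepsin B, was 1.78-fold lower (1.75 to 1.81), at 956 CPM and 537 CPM. Ctsf, a less abundant cysteine protease gene, stood at 24.0 CPM (22.6 to 25.4) against 9.16 CPM (8.35 to 10.0), or 2.62-fold lower (2.35 to 2.92). Ctso was the fifth protease gene lower, with a log2 ratio of -1.13. Ctsz and Ctsa, the latter encoding the protein that stabilises sialidase and beta-galactosidase, lay within 1.5-fold, with log2 ratios of -0.29 and -0.01.

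The level of Ctsd, the aspartic protease gene, was equal in both libraries only as a sum over unlike cells. It was 756 CPM (749 to 764) for sph/+ against 754 CPM (746 to 761) for sph/sph, a ratio of 0.997 (0.982 to 1.01). The lymphatic-like barcodes held 61.8% of the sph/sph Ctsd UMIs, at 2376 CPM (2346 to 2406). The other sph/sph cells were at 358 CPM (353 to 364), 2.11-fold below sph/+ (2.07 to 2.15). With only cells of at most 8000 UMIs in both libraries, an alternative chosen after seeing the data, the log2 ratio over all endothelial-like cells was -0.87. Ctsd overlaps Gm49369 on the same strand, so reads could be split between them.

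Ctsh, which encodes an aminopeptidase cathepsin, was the 1 protease gene called higher. The sph/+ cells had 12.2 CPM (11.2 to 13.2) against 77.4 CPM (75 to 79.8) in sph/sph, a 6.34-fold higher level (5.81 to 6.93). Of its sph/sph UMIs 73.8% lay in lymphatic-like barcodes, at 291 CPM, and the remaining cells were at 25.2 CPM (23.7 to 26.8). When the whole lymphatic-like clusters were left out too, it was at 15.4 CPM (14.2 to 16.6) in 9581 sph/sph cells, beside 12.1 CPM in sph/+, and was no longer called. Of the 581 Ctsh UMIs in sph/+, 345 lay in 81 vein cells, at 862 CPM (773 to 958), and 79 in large-vessel cells, at 54.3 CPM (43.0 to 67.7), while LSEC-like cells were at 3.42 CPM (2.89 to 4.01). Ctsh was itself among the 10 leading genes of that vein cluster. The sph/sph vein and large-vessel clusters were at 308 CPM (273 to 345) and 143 CPM (126 to 163).

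Ctss, whose protease trims the invariant chain during antigen presentation, stayed under the 20 CPM floor but was detected more in sph/sph. Against 63 UMIs in sph/+, or 1.32 CPM (1.02 to 1.69), there were 626 in sph/sph, or 12.1 CPM (11.2 to 13.1), a ratio of 9.18 (7.07 to 12.1). Over sph/sph classes it was at 26.5 CPM (21.0 to 33.0) in the chemokine-high clusters, at 20.7 CPM (17.6 to 24.1) in the Tnfrsf9-high clusters and at 2.87 CPM (1.92 to 4.12) in lymphatic-like barcodes. Myeloid cells also express Ctss, and clusters led by their genes were left out of all comparisons. The sph/+ cluster of 144 cells, led by Kupffer cell genes such as C1qa and Clec4f, stood at 98.2 CPM (76.5 to 124). The sph/sph cluster of 18 cells, led by Lyz2, S100a9 and S100a8, which mark neutrophils and monocytes, stood at 450 CPM (339 to 586) and is not the same kind of cell. The summed macrophage markers given above were higher in sph/+, but most of that sum was Fcer1g. S100a8 and S100a9 are not among those markers, so the sum does not cover cells of the sph/sph kind. Whether transcripts from myeloid cells entered the Ctss level was not tested.

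The glycosidase genes formed a subset that was lower and a subset that was near equal, with none called higher. Man2b1, the lysosomal alpha-mannosidase gene, had 344 CPM (339 to 350) in sph/+ against 115 CPM (112 to 118) in sph/sph, a 3-fold lower level (2.91 to 3.09). Manba, the beta-mannosidase gene, stood at 34.5 CPM (32.9 to 36.2) against 14.8 CPM (13.8 to 15.9), or 2.33-fold lower (2.14 to 2.55). Hexa, encoding the alpha subunit of hexosaminidase A, was at 207 CPM and 101 CPM, 2.05-fold lower (1.98 to 2.12). Outside lymphatic-like barcodes Hexa was at 62.5 CPM (60.1 to 64.9), 3.31-fold below sph/+, and inside them at 258 CPM (248 to 268). Gaa, the acid alpha-glucosidase gene, was 2.02-fold lower (1.90 to 2.14) and Naglu, of heparan sulfate breakdown, 1.67-fold lower (1.55 to 1.80). The genes for sialidase (Neu1), beta-galactosidase (Glb1) and beta-glucuronidase (Gusb) lay within 1.5-fold, with log2 ratios of 0.05, -0.18 and -0.44. Glb1 shares its strand with the overlapping gene Tmppe.

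The main structural proteins of the lysosomal membrane were among the members with the lowest ratios. Lamp2, a heavily glycosylated membrane protein needed for autophagosome clearance, had 973 CPM (964 to 982) in sph/+ against 228 CPM (223 to 232) in sph/sph, a 4.28-fold lower level (4.19 to 4.36). Scarb2, the receptor that carries beta-glucocerebrosidase to lysosomes, was 4.32-fold lower (4.17 to 4.48), at 310 CPM and 71.7 CPM. Lamp1, the partner of Lamp2 in coating the membrane, stood at 820 CPM (812 to 828) against 338 CPM (333 to 343), or 2.42-fold lower (2.38 to 2.47). Both Scarb2 and Lamp2 stayed far below sph/+ in lymphatic-like barcodes, at 76.7 and 337 CPM. Atp6ap1, an accessory subunit of the proton pump, had a log2 ratio of -1.24. Atp6v0d1, a subunit of the membrane part of the pump, and the cholesterol exporter gene Npc1 lay within 1.5-fold, at -0.45 and -0.12.

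Cd63, a tetraspanin of late endosomes, lysosomes and endothelial storage granules, was the exception in the membrane group. The gene had 52.5 CPM (50.4 to 54.6) in sph/+ against 293 CPM (289 to 298) in sph/sph, a 5.59-fold higher level (5.35 to 5.83). Lymphatic-like barcodes stood at 1061 CPM (1041 to 1081) and held 70.9% of the sph/sph Cd63 UMIs. In the other sph/sph cells it was at 106 CPM (103 to 109), 2.02-fold above sph/+ (1.93 to 2.13), and without the whole lymphatic-like clusters at 73.1 CPM (70.4 to 75.8), where it was no longer called. The large-vessel clusters of both libraries carried like levels, 381 CPM (350 to 414) for sph/+ against 357 CPM (329 to 387) for sph/sph. The naming rule of these clusters differed between the libraries.

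Among the other soluble proteins, genes for protein and lipid breakdown differed in their ratios. Tpp1, a peptidase of the lysosomal lumen, had 303 CPM (298 to 308) in sph/+ against 82.3 CPM (79.8 to 84.8) in sph/sph, a 3.69-fold lower level (3.56 to 3.81). Psap, the precursor of the saposins that present lipids to hydrolases, stood at 1094 CPM (1084 to 1103) against 556 CPM (549 to 562), or 1.97-fold lower (1.94 to 2). Ppt1, a thioesterase gene, was 1.71-fold lower (1.61 to 1.80). Lipa, the acid lipase gene, the cholesterol carrier gene Npc2 and Grn, the progranulin gene, lay within 1.5-fold, with log2 ratios of 0.07, -0.26 and 0.22. Tfeb stood at 17.6 CPM (16.5 to 18.9) against 19.9 CPM (18.7 to 21.2), under the floor in both.

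The ratios were also counted by presence of the E-box element, with no test of the difference. Without lymphatic-like barcodes, 5 of 8 measured members that held the element were lower in sph/sph, and so were 12 of 19 matched members in whose promoters it was not found, beside 21.9% of all measured genes. Lamp1, with its 4 copies, had a log2 ratio of -1.47 there, and Glb1, with 1 copy, -0.41. Lamp2, with no match, was at -2.27.

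Across the lobule of the sph/+ liver, 5 sinusoidal clusters were placed by landmark genes, with lysosomal genes kept out of the genes used for clustering. LSEC-like clusters that were interferon-led (1142 cells), chemokine-high (246) or in other states (2466) were not placed. The zones thus cover only part of the sinusoidal cells. By summed markers the portal inlet cluster had the most portal transcripts of the 5, at 7369 CPM, and the pericentral cluster the most central ones, at 12437 CPM. The portal inlet cluster also held more central transcripts than the portal-side cluster, 3993 against 2464 CPM, and its log2 ratio of portal over central was 0.88 against 1.03. By that ratio the portal-side cluster would be the portal end, so the order of these neighbours depends on the measure. The portal inlet cluster (469 cells) was led by Ednrb and Adgrg6, the portal-side cluster (1869) by Msr1 and Efnb1, the midlobular cluster (1640) by Lyve1, the central-side cluster (1578) by Wnt2, and the pericentral cluster (327) by Rspo3. Members made up 0.769%, 0.998%, 1.09%, 1.01% and 0.849% of UMIs in that order, with the lowest shares at both ends. Of 31 members measured over these zones, 13 differed at least 1.5-fold between the highest and the lowest zone, beside 40.7% of 7479 genes, which is near the same share. At least 2-fold apart were 7 members, beside 16.4% of genes. The zones differed in cell number, and for class and zone levels of 50 CPM or more the half-width of the counting interval had a median of 7.74% and a maximum of 40.5% of the level.

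The cathepsin genes did not share 1 zonal course. Ctsl peaked in the midlobular cluster, with 782, 1537, 2198, 1338 and 694 CPM from portal inlet to pericentral, a 3.17-fold span. Ctsb was highest on the portal side, with 1009, 1079, 977, 804 and 758 CPM. Ctsd was lowest at the portal inlet and highest in the middle, with 361, 630, 925, 924 and 701 CPM. Lgmn, at 526, 851, 715, 674 and 566 CPM, had its highest level on the portal side. Ctsf was at 20.9, 23.1, 25.2, 26.5 and 45.4 CPM, so that only the pericentral cluster stood apart. Ctsh was at 46.2 CPM in the pericentral cluster and at no more than 3.42 CPM in the other 4 clusters.

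The membrane and glycosidase genes included courses in opposite directions, given here in the order above. Naglu was higher at each step from portal inlet to pericentral, with 17.1, 28.8, 42.4, 51.3 and 59.9 CPM, 3.51-fold between the ends (2.35 to 5.29). Cd63 ran the other way, with 142, 70.3, 21.3, 20.5 and 14.6 CPM, 9.76-fold between the ends (6.08 to 16.7). With the portal-side cluster placed first neither course would be even, and the portal end would be 28.8 CPM for Naglu and 70.3 CPM for Cd63. Lamp2 was at 591, 872, 1058, 1194 and 1096 CPM, and Scarb2 at 305, 283, 306, 367 and 411 CPM, both higher toward the central vein. Lamp1 was flatter, at 705, 838, 905, 830 and 680 CPM. Among the sugar-cleaving enzymes, Man2b1 was at 263, 361, 361, 398 and 301 CPM, Hexa at 173, 215, 229, 197 and 152 CPM, and Gaa at 57.3, 62.9, 67.1, 75.7 and 87.5 CPM. Manba showed no course beyond its intervals, from 27.8 to 36.5 CPM. The other soluble proteins were the flattest group, with Psap from 962 to 1173 CPM, Tpp1 from 230 to 314 CPM, Ppt1 from 57.7 to 75 CPM, Npc2 from 242 to 296 CPM and Grn from 231 to 301 CPM.

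**Figure D3:**
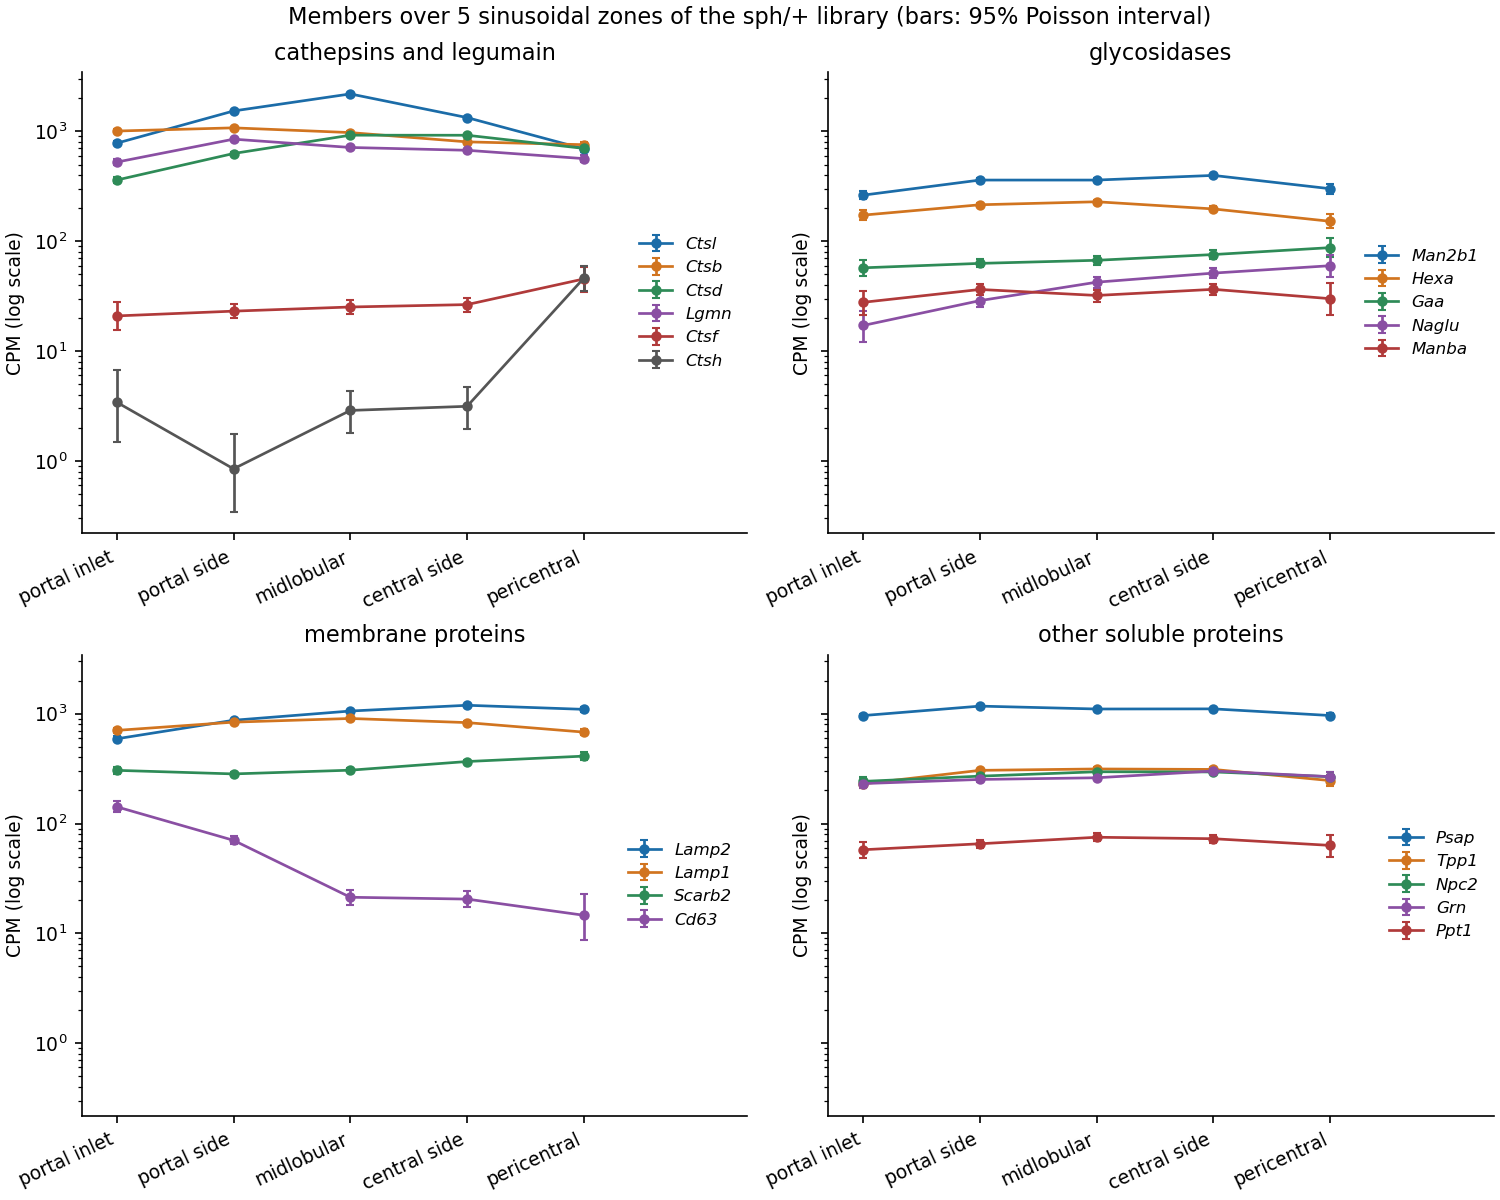
Level in CPM (log axis) of named members in the 5 sinusoidal clusters of the sph/+ library, from portal inlet to pericentral, with 95% Poisson intervals as bars. Ctsl peaks in the midlobular cluster at 2198 CPM, Naglu climbs from 17.1 to 59.9 CPM, and Cd63 drops from 142 to 14.6 CPM. The widest span is that of Ctsh, from 0.846 CPM on the portal side to 46.2 CPM in the pericentral cluster. Ctsd, Ctsf and Lamp2 span 2.56-fold, 2.17-fold and 2.02-fold, and the remaining lines less than 2-fold.

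Between the ends of the lobule, 8 of 31 measured members were lower and 1 was higher at the portal inlet than in the pericentral cluster, beside 13.9% and 9.73% of 7279 genes. The higher member was Cd63. Those lower were Ctsh, Naglu, Ctsf, Ctsd, Lamp2, Ctsa, Neu1 and Gaa, and the member median was -0.13 beside -0.05 over all genes. These counts depended on how the ends were drawn. With doublets kept, the ends were clusters of 985 and 113 cells, and 5 members were higher and 4 lower. With the outer quintiles of a score of portal minus central markers, 3 members were lower and Cd63 was higher. The share over all genes is not given for these other ends, so their counts cannot be set beside a background. Along those quintiles, from the central to the portal end, Naglu was at 54.2 and 22.4 CPM, Lamp2 at 1180 and 768 CPM, and Cd63 at 20.2 and 84.6 CPM.

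Endothelium of large vessels in sph/+ held fewer lysosomal transcripts than the sinusoids, at 0.575% of UMIs (0.5629 to 0.5875) in 279 Vwf-high cells against 1.02% in 9737 LSEC-like cells. Ctsl was at 410 CPM (378 to 445), Lamp2 at 282 CPM (256 to 311) and Lgmn at 207 CPM (184 to 232) in these vessel cells. The large-vessel clusters of sph/sph, with 282 cells, had a like share of 0.546% (0.5347 to 0.5572). These 2 sets were not named by the same rule and may not be the same kind of cell. In the sph/+ cluster 12 of 12 LSEC markers were detected, and by the sph/sph rule it would be called residual sinusoidal-type. In the 2 sph/sph clusters 7 and 3 of these markers were detected. Within that like share the members differed. Ctsd was at 587 CPM (550 to 625) against 271 CPM (245 to 299) in sph/+, Ctsb at 1049 CPM (1000 to 1100) against 876 CPM (828 to 925), and Man2b1 at 209 CPM against 126 CPM. Ctsl, at 214 CPM (192 to 238), Lgmn, at 96.7 CPM (82.3 to 113), and Lamp2, at 157 CPM (139 to 178), were lower in sph/sph.

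In the sph/sph library, cells resembling sinusoidal endothelium were scarce and unlike those of sph/+ in their proteases. A cluster of 847 cells with at least 9 of 12 LSEC markers detected is called residual sinusoidal-type here, and its leading genes included Clec4g and Dnase1l3. The LSEC-like sph/+ clusters had also to show fewer than 8 of 15 markers of continuous vascular endothelium. The residual cluster showed 8 of these, so the 2 sets were not chosen by the same rule. Against LSEC-like sph/+ cells, 18 of 29 measured members were lower and 2 were higher there, beside 21.6% and 20.1% of 7396 genes, with a member median of -0.82 beside -0.04. Ctsl was at 209 CPM (195 to 223) against 1750 CPM (1738 to 1763), 8.38-fold lower (7.83 to 8.98), a level within counting error of the 214 CPM (192 to 238) of sph/sph large vessels and below the other 9 sph/sph classes. Ctsb was nearly at the sph/+ level, at 924 CPM (894 to 954) against 975 CPM (966 to 984). The mannosidase genes behaved like Ctsb. Man2b1 was at 335 CPM (318 to 354) against 356 CPM (351 to 362), and Manba at 32.3 CPM (27.0 to 38.4) against 35.4 CPM (33.6 to 37.2). Hexa, Lamp1, Scarb2, Lamp2 and Psap were lower, by 3.31-fold, 3.33-fold, 3.07-fold, 3.09-fold and 2.82-fold. The members called higher were Cd63, at 193 CPM (179 to 207) against 42 CPM (40.1 to 43.9), and Ctsa, at 169 CPM (156 to 182) against 94.4 CPM (91.6 to 97.3). Summed macrophage markers were 73.9 CPM in the residual cells and 166 CPM in the LSEC-like cells, and their part in these levels was not tested.

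The other sph/sph cells were mostly of capillary kinds, named here by a leading gene. The Rgcc-high, Aplnr-high and Tnfrsf9-high clusters held 2037, 2217 and 1708 cells, and members made up 0.463%, 0.379% and 0.424% of their UMIs. The Rgcc-high capillary clusters had the highest Ctsl of all sph/sph classes, at 784 CPM, against 658 and 539 CPM in the other two. Lipa stood out for its direction: it was at 242 CPM in Tnfrsf9-high, 228 CPM in chemokine-high and 209 CPM in Rgcc-high clusters, and at 56.0 CPM in lymphatic-like barcodes. Neu1 was also higher in the capillary clusters, from 64.8 to 77.8 CPM, than in lymphatic-like barcodes at 30.3 CPM. Its highest level, 117 CPM, was in clusters not otherwise named, called other endothelial (173 cells). Scarb2 and Ctsb were highest in veins and large vessels, with Scarb2 at 173 and 169 CPM and Ctsb at 1057 and 1049 CPM, and Scarb2 was at 49.1 CPM in Aplnr-high cells. Arterial-like clusters (405 cells) had a share of 0.405% and cycling clusters (1042 cells) the low share of 0.320%, with Ctsb at 303 CPM in the latter.

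Across 9 sph/sph classes, taken in the order Rgcc-high, Aplnr-high, Tnfrsf9-high, chemokine-high, arterial-like, large-vessel, vein, residual sinusoidal-type and cycling, the members did not share 1 pattern. Ctsl was at 784, 658, 539, 470, 369, 214, 279, 209 and 325 CPM. Ctsb was at 436, 398, 413, 487, 424, 1049, 1057, 924 and 303 CPM. Where Ctsl was high in capillary clusters, Ctsb was high in the vessel and residual sinusoidal-type clusters. Of these 9, Aplnr-high or cycling cells were lowest for Ctsd, at 341, 229, 269, 399, 393, 587, 531, 498 and 211 CPM, and for Lgmn, at 85.4, 69.6, 105, 83.9, 148, 96.7, 140, 225 and 92.9 CPM. The other endothelial class, not among the 9, was lower still, at 160 CPM for Ctsd and 50.1 CPM for Lgmn. Man2b1 was highest in the residual, vein and large-vessel classes, at 79.1, 96.2, 102, 66.3, 120, 209, 229, 335 and 79.7 CPM. Hexa differed less, at 70, 50.4, 52.2, 56, 44.6, 93.7, 79.4, 63.6 and 48.6 CPM. Among membrane proteins, Lamp2 was highest in the residual cells, at 224, 174, 185, 199, 155, 157, 272, 327 and 151 CPM, and Lamp1 in Rgcc-high and vessel cells, at 355, 241, 301, 329, 271, 358, 356, 250 and 245 CPM. Cd63 was more than 100 CPM only in the vessel and residual clusters of these 9, at 21.4, 34.5, 48.1, 73.9, 63.2, 357, 213, 193 and 40.3 CPM. Psap varied little, at 587, 434, 504, 487, 534, 433, 545, 396 and 401 CPM, and Tpp1 was highest in the residual and vein clusters, at 69.6, 59.2, 73, 57.3, 93.7, 104, 133, 161 and 49.7 CPM.

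**Figure D4:**
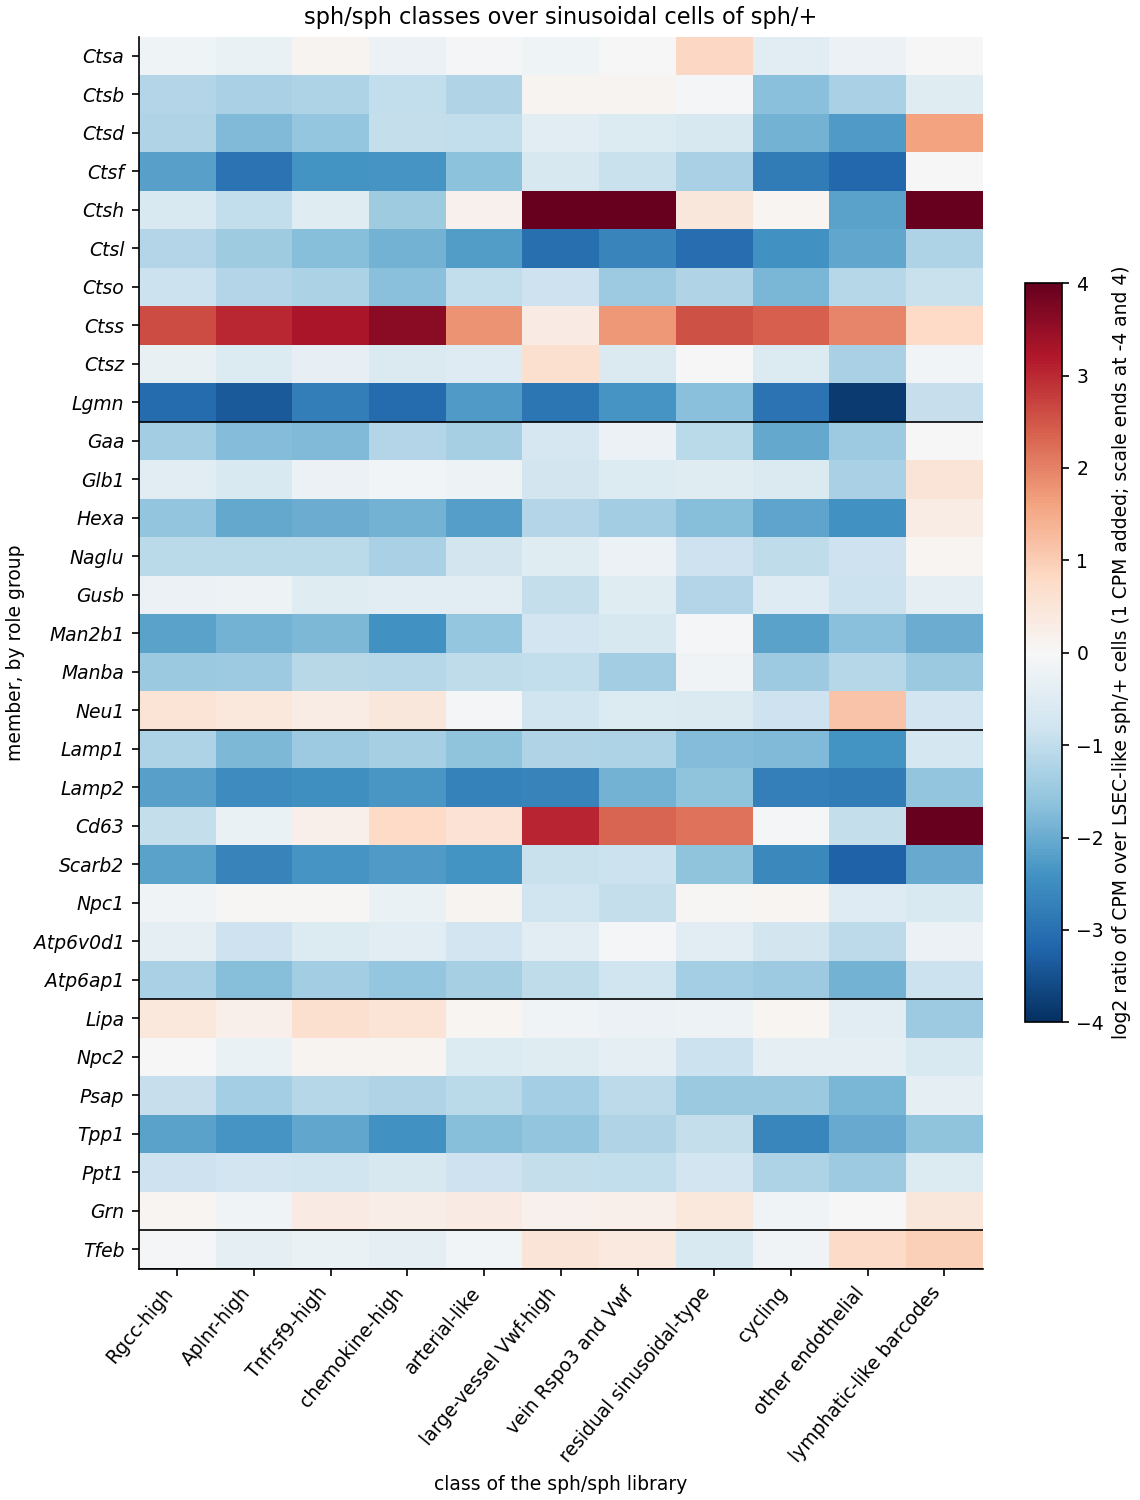
Log2 ratio of CPM in each of 11 sph/sph classes over LSEC-like sph/+ cells, for 32 members that reached 20 CPM in any of these classes, ordered by role group. Blue is lower and red higher; Lgmn, Lamp2, Tpp1 and Scarb2 are blue in all 11 columns, Man2b1 is near white in the residual sinusoidal-type column, and Ctsh, Cd63 and Ctsd are red in the lymphatic-like column. The colour scale ends at -4 and 4, and 4 values lie past it.

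The lymphatic-like barcodes were the sph/sph cells richest in lysosomal transcripts. Such richness was the reason for setting them apart, so it is not an independent finding. Of 32 members that reached 20 CPM in some sph/sph class, 14 had their highest level there among 11 classes, beside 17.0% of 8753 genes. Against the other endothelial-like cells of the same library, 13 of 30 measured members were higher and 2 lower, beside 16.9% and 24.5% of 7295 genes, and the member median was 0.50 beside -0.09. Among the proteases, Ctsh was at 291 CPM (281 to 302), 11.6-fold higher (10.8 to 12.4), Ctsd 6.63-fold (6.49 to 6.77), Ctsf 4.62-fold (3.84 to 5.56) and Lgmn 3.32-fold (3.18 to 3.47). Hexa, Gaa, Naglu and Glb1 were higher among the glycosidases, by 4.13-fold, 2.65-fold, 2.07-fold and 1.92-fold. In the membrane group Cd63 was 10.0-fold higher (9.66 to 10.4), Lamp1 1.73-fold and Lamp2 1.68-fold, and Psap, 1.77-fold, and Tfeb, 2.18-fold (1.91 to 2.48), completed the list. Lipa was 3.30-fold lower (3.03 to 3.60) and Neu1 1.90-fold lower (1.69 to 2.15). Ctsd alone made up 25.7% of the members' UMIs in these barcodes, against 8.24% in the other sph/sph cells and 7.57% in sph/+.

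**Figure D5:**
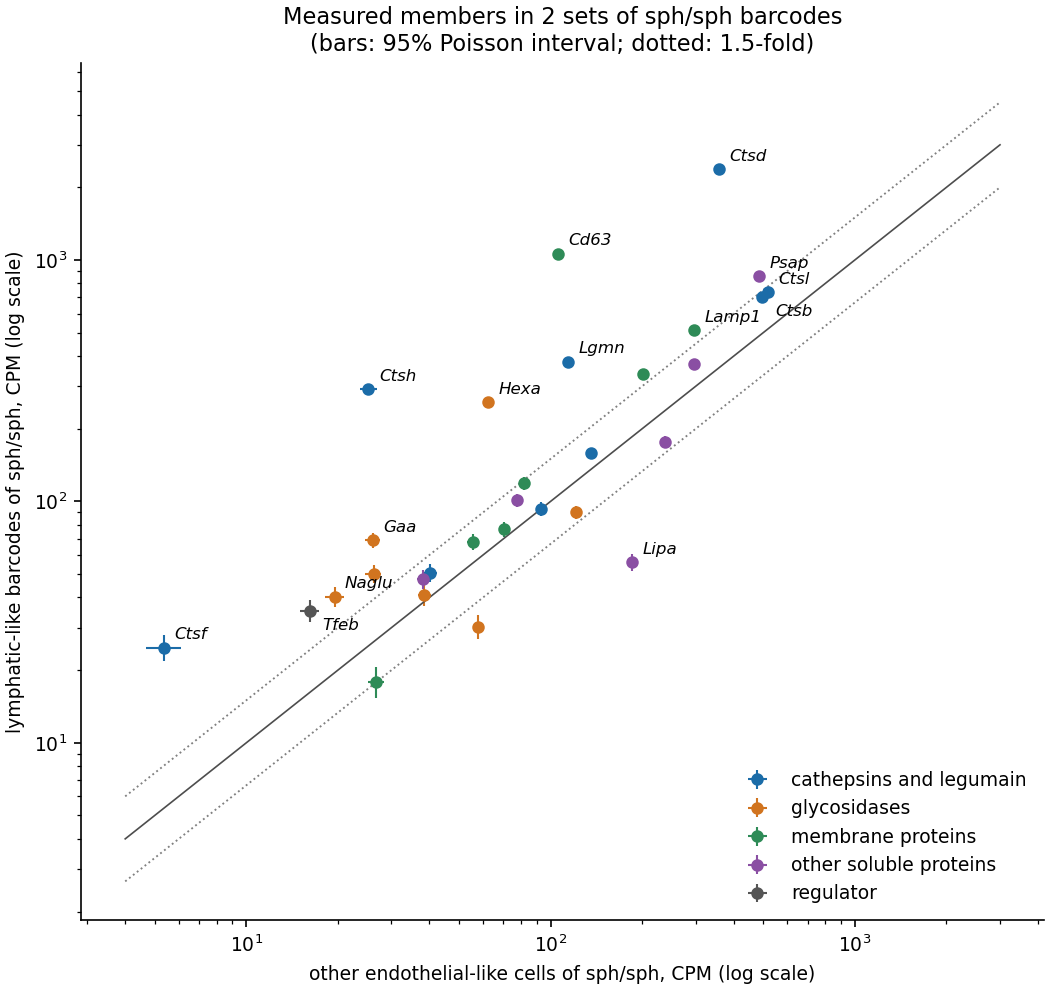
Level of each measured member in lymphatic-like barcodes of sph/sph (vertical) against the other endothelial-like cells of sph/sph (horizontal), in CPM on log axes with 95% Poisson intervals; the solid line marks equal levels and dotted lines 1.5-fold. Ctsd (2376 against 358 CPM), Cd63 (1061 against 106 CPM) and Ctsh (291 against 25.2 CPM) lie far above the line, and Lipa (56.0 against 185 CPM) lies below it.

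The levels in lymphatic-like barcodes were not simply those of sph/+ sinusoids. Gaa, at 68.9 CPM, and Naglu, at 40.3 CPM, stood beside 69.7 and 38.4 CPM in LSEC-like sph/+ cells. Ctsl, at 736 CPM, Lgmn, at 379 CPM, Man2b1, at 90.0 CPM, and Scarb2, at 76.7 CPM, were below the 1750, 721, 356 and 315 CPM of those cells, and Ctsd and Cd63 were above them. Macrophage markers summed to 25.4 CPM in the lymphatic-like barcodes, with 3 of 13 at 0, Clec4f among them.

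Lysosomal genes outside the 35 members were also more often lower than higher in sph/sph. A list of 90 such genes was used, 89 of which matched. Of 75 measured in endothelial-like cells, 31 were lower (41.3%) and 1 was higher, beside 21.5% and 18.4% of all measured genes, with a median log2 ratio of -0.48. By group, 10 of 20 further hydrolases were lower, as were 8 of 14 membrane proteins, 5 of 14 proton pump subunits, 3 of 5 regulators, 2 of 10 autophagy genes, 2 of 9 sorting genes and 1 of 3 inhibitors. Sgsh, the heparan sulfamidase gene, was at 43.2 CPM against 8.69 CPM in sph/sph. Tspan7, a tetraspanin placed in the membrane list though it is also found at the cell surface, was at 1176 and 81.6 CPM. The pump subunit gene Atp6v0a1 was at 68.2 and 25 CPM, and Tfec, a relative of Tfeb, at 60.4 and 11.1 CPM. The gene called higher was Igf2r, the mannose 6-phosphate receptor that delivers new enzymes to lysosomes, at 16.4 CPM for sph/+ against 61.8 CPM for sph/sph. Without lymphatic-like barcodes 41 of 75 were lower (54.7%) and 3 higher, beside 21.9% and 18.2% of 7454 genes. Igf2r was then at 68.7 CPM.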

How the data were processed

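Libraries were made with the 10x Genomics 3' kit, per the labels' protocols. The submitters' processing notes name Cell Ranger 3.0 and mm10, and the headers of the matrices name software version 3.1.0. Which annotation release was used is not given in the sources used here. From these steps the authors deposited raw UMI counts per gene and barcode, with no normalization. The deposited sph/+ matrix has 13136 barcodes and 64460283 UMIs, and the sph/sph matrix 16386 barcodes and 68983780 UMIs. A 3' tag count does not depend on transcript length, so CPM were compared between genes without a length correction.

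Barcodes with at least 500 genes, at least 1000 UMIs and at most 15% mitochondrial UMIs were kept (12304 and 13094). Scrublet in scanpy 1.11.5 marked 0 barcodes automatically, so the highest scores were removed at the expected rate of 0.8% per 1000 barcodes, 10.76% of sph/+ and 13.54% of sph/sph barcodes. This left 10980 and 11321 cells. Each library was clustered alone (2000 variable genes, 30 principal components, 15 neighbours, leidenalg 0.10.2, resolution 1.0, Python 3.11.15), with 124 lysosomal genes kept out of the variable genes. Classes were named from marker lists, and a marker counted as detected in at least 25% of cells. LSEC-like clusters of sph/+ needed 9 of 12 LSEC markers and fewer than 8 of 15 markers of continuous vascular endothelium. Residual sinusoidal-type clusters of sph/sph needed only the 9 of 12. Lymphatic-like clusters needed 5 of 7 markers and cycling ones 4 of 10, and clusters led by at least 2 markers of another type were left out. Names of zones and subtypes rest on genes among the top 10 by fold with 20 CPM added, and these naming rules were set after the clusters were seen. They are rebuilt names, which may differ from those of the study.

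Counts were summed over the cells of a class and scaled to CPM. The ratio, its calls and its intervals were run on simulated Poisson counts with known folds for the real genes. Those counts follow the counting model of the intervals and hold no variation between mice, libraries or cells. They therefore check the calculation only. Values are printed for up to 4 measured members of each role group with the largest absolute ratio and the 2 most abundant. Other members appear by count or where a result turns on them. Gene positions are from GENCODE M21 and promoters from RefSeq, GRCm38.p6. No protein sequence was used. Members, lists and thresholds were chosen with earlier results of these data known.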

Additional observations from a re-analysis of the deposited data

How the results depend on the processing

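The alternatives were other scalings, floors and pseudocounts, equal weight per cell, stricter cell filters, doublets kept, cycling clusters left out, another lymphatic rule and other clusterings. Of the ratios of single members between libraries and between lymphatic-like and other sph/sph cells, 885 kept their side of 1.5-fold, 8 crossed to outside it and 7 to within it, and no called ratio among these changed sign; zone ratios and ratios of the residual cells were not counted here. Of the counts, 86 stayed within 1.5 times their reported value and 10 moved. The share over all genes is not given for the changed settings below, so these counts cannot be set beside a background. In sph/sph without lymphatic-like barcodes, the 2 members called higher became 1 at a floor of 50 CPM, and 0 with cells weighted equally, with whole lymphatic-like clusters left out, or with cells of at most 8000 UMIs (the last chosen after seeing the data). Ctsh and Cd63 then had log2 ratios of 0.45 and 0.50, 0.33 and 0.49, and 0.23 and 0.38 in turn. Of the other lysosomal genes, 4 were higher with no floor and 2 with equal weighting, and 19 were lower at a floor of 50 CPM, where fewer genes are tested. Between the ends of the lobule 5 members were higher and 4 lower with doublets kept. Ctsl, Lgmn, Manba and Tpp1 became higher there, Gusb became lower, and Ctsa, Ctsd, Gaa, Neu1 and Lamp2 were no longer called lower. At a clustering resolution of 0.5 Ctsl was instead called lower. With outer quintiles 3 were lower and Cd63 was higher. The cause was not tested. Cd63 was called higher and Naglu lower with doublets kept and at both other clustering resolutions. Leaving mitochondrial and ribosomal protein genes out of the total moved all log2 ratios of lymphatic-like over other sph/sph cells by 0.11. No paired analysis was possible because each genotype has 1 library. Depth limits members under about 20 CPM, such as Ctss and Tfeb, and small classes.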

Other observations

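States of the sinusoidal cells of sph/+ other than the lobule zones carried near the same lysosomal transcripts as the sinusoids at large. The interferon-led clusters (1142 cells, led by Ifit1 and Isg15) had a member share of 1.05%, and the chemokine-high cluster (246 cells, led by Cxcl10 and Vcam1) had 1.08%, beside 1.02% over all LSEC-like cells. Ctsl was at 1948 CPM in the interferon-led and 2262 CPM in the chemokine-high cells, and Ctsd at 793 and 750 CPM. Ctss was at 1.38 CPM in the interferon-led cells. In the chemokine-high cluster of sph/+ it was at 0 CPM (0 to 3.29), and in the chemokine-high clusters of sph/sph at 26.5 CPM. Cycling cells differed more between the libraries, with a share of 0.848% in 187 sph/+ cells and 0.320% in 1042 sph/sph cells, and Ctsl at 1502 and 325 CPM.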
